A study of Mus musculus with 9 samples.

Results

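The genes described here are mouse receptors and receptor-like membrane proteins whose symbols begin with Gpr, a prefix given to sequences found before their ligands were known, together with the named receptors Hcar2, Adra1a and Ffar4. They were chosen by symbol: 56 genes of the deposited count table begin with Gpr and a number, and 3 were added by name, which gave 59 of the 16200 genes in the table. The choice also used measured values, since the 3 added genes were picked with their levels in these libraries known. Hcar2, Adra1a and Ffar4 are therefore described with no test. The fall of Gpr162 in IL-4 cells was known as well when the set was drawn up, so its test is no independent support. Of the 56 Gpr genes, 24 are called well measured here. They were chosen by having passed a filter on low counts and having a mean of at least 1 CPM (counts scaled to library size with TMM factors) over all 9 libraries, and the 3 added genes met the same terms. Gpr18 lay just inside that level with a mean of 1.54 CPM, and Gpr39 just outside it with 0.963 CPM. A gene that is high in 1 group can reach the level through that group alone, so counts over the 24 describe them and are not support for a change.

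The cells were macrophages (WT genotype) that had been raised from mouse bone marrow over 6 days in medium with L929 supernatant, a source of the macrophage growth factor CSF-1. Some received interleukin-27 (IL-27) at 100 ng/ml for 6 h, others interleukin-4 (IL-4) at 20 ng/ml for 12 h, and others no cytokine (untreated), with 3 polyA RNA libraries in each group. The 2 treatments differ in time as well as in cytokine, so in the comparison of IL-27 with IL-4 cells the effects of cytokine and hour cannot be told apart. When the untreated cells were taken is not stated, so the comparisons with them may also hold a difference in time. The labels name both cytokines in 1 shared protocol text, so a combination of IL-27 with IL-4 in the IL-27 group is neither stated nor denied. They give no strain, sex or age, and nothing says that the libraries came from separate animals or cultures, so the p-values measure only how these libraries varied, and part of that may be technical.

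Library totals ran from 34577188 to 37951827 counts, with 14001 to 14326 genes detected. All 10 macrophage markers were present in every library, and their summed level was 25080 to 27180 CPM in IL-27 cells, 16750 to 20360 CPM in IL-4 cells and 23820 to 32580 CPM in untreated cells. Mrc1, the mannose receptor that IL-4 is known to raise, stood at 1258 to 1438 CPM in the IL-4 libraries. It had 292 to 326 CPM in the IL-27 libraries and 282 to 312 CPM in the untreated ones. Summed markers of B cells, T and NK cells, mast cells and their relatives, red cells and platelets, and dendritic cells each stayed under 4 CPM, and those of neutrophils, nearly all S100a8 with Mpo, Elane and Camp at 0.0293 CPM or less, reached 7.72 to 9.08 CPM in IL-27 cells, 2.05 to 2.82 CPM in IL-4 cells and 3.52 to 4.71 CPM in untreated cells. Fibroblast and endothelial markers were present throughout and were highest with IL-27: Col1a1, Col1a2, Col3a1, Pdgfra and Cdh5 summed to 1018 to 1260 CPM in IL-27 cells, 502 to 709 CPM in IL-4 cells and 671 to 765 CPM in untreated cells. Their part in the receptor differences was not tested. In bulk RNA, fewer cells of a type and less RNA per cell cannot be told apart. IL-4 replicate 1 and untreated replicate 2 stood apart from their groups, in the same direction, with a correlation of 0.91 between their deviations from the group means: over 9553 genes, the chi-square per gene between replicates was 121 to 151.9 in pairs holding one of them and 6.04 to 10.2 in the others. The counts of receptors called below were therefore also made without both.

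G-protein-coupled receptors are proteins that cross the membrane many times and pass a signal from outside the cell to a G protein inside it. The alpha subunit of that G protein sets the outcome: Gs raises cyclic AMP, Gi lowers it, Gq opens calcium stores and G12/13 acts on the cytoskeleton. Receptor kinases then phosphorylate the active receptor and arrestins bind it, which ends the signal. Macrophages use such receptors to sense acid, lipids, metabolites and stress hormones. Several proteins that carry a Gpr symbol sit in Golgi or lysosome membranes instead. In the gene ontology annotation of the deposited table, 19 of the 27 well measured genes carried the term for G-protein-coupled receptor activity. The 8 without it were Gpr89, Gpr107, Gpr108, Gpr137, Gpr137b, Gpr146, Gpr155 and Gpr180.

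Promoter sequences from the RefSeq table (GRCm38.p6, 250 bases before to 50 after each gene's start) are shown for 3 genes: Gpr157, which was highest with IL-27 and held no searched motif, and Gpr85 and Gpr155, which were lowest with IL-27 and held one each. They were searched on both strands for STAT-type palindromes TTCNNNGAA and TTCNNNNGAA, whose second form is the one STAT6 is known to prefer, for the interferon-type repeat GAAANNGAAA, and for the cyclic AMP response element core TGACG. Capitals mark matches. The Gpr157 window (chr4:150087253-150087552, plus strand) held none of the 4 motifs. The Gpr85 window (chr6:13839893-13840192, minus strand) held TTCNNNNGAA 29 bases before the start, and the Gpr155 window (chr2:73386431-73386730, minus strand) held TGACG 161 bases before it.
Gpr157: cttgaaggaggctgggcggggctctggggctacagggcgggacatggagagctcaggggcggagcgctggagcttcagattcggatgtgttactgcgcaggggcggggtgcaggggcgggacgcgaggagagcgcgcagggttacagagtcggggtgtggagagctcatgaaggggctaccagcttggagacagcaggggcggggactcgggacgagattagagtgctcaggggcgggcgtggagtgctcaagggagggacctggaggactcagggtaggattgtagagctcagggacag
Gpr85: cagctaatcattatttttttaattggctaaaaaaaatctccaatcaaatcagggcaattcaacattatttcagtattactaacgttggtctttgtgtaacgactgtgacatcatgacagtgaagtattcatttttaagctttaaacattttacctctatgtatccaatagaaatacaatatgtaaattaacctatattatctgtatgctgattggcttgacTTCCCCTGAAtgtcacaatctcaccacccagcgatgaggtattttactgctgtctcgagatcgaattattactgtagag
Gpr155: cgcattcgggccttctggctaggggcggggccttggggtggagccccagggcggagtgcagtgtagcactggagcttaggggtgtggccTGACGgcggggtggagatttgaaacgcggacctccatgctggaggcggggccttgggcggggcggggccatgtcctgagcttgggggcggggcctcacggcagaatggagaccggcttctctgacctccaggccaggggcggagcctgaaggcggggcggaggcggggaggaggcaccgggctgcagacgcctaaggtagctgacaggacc
A gene with several windows counted once where any of them matched. The table had promoters for 42 of the 59 genes, 21 of them well measured. Among the 21, TTCNNNGAA was found in 1 (Gpr146), against 9.55% of the 27025 genes with a promoter in the table, and TTCNNNNGAA in 1 (Gpr85), against 8.01%. GAAANNGAAA was found in 2 (Gpr18 and Gpr19), against 3.99%, and TGACG in 9, against 23.0%. These matches describe the letters in the windows and say nothing of binding.

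Levels differed widely between the genes when set per length. Gpr137b was the most abundant, with 170.2, 172 and 171 FPKM (fragments scaled by gene length and library total) in IL-27 cells, 54.2, 62.6 and 65.2 FPKM in IL-4 cells and 111, 92.9 and 109.5 FPKM in untreated cells. Over all 9 libraries it averaged 112 FPKM, followed by Gpr65 with 28.6, Gpr108 with 25.8, Gpr157 with 24.6 and Gpr107 with 21.7 FPKM. At the low end stood Gpr34 with 0.240 and Gpr35 with 0.192 FPKM. The order of the leading genes depended on the treatment: Gpr157 reached 49.4, 48.3 and 50.8 FPKM in IL-27 cells, above the 8.71, 9.42 and 8.92 FPKM of Gpr65 there, while in IL-4 cells Gpr65 had 35.4, 53.0 and 49.8 FPKM and Gpr157 8.54, 9.01 and 10.7 FPKM.

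**Figure D1:**
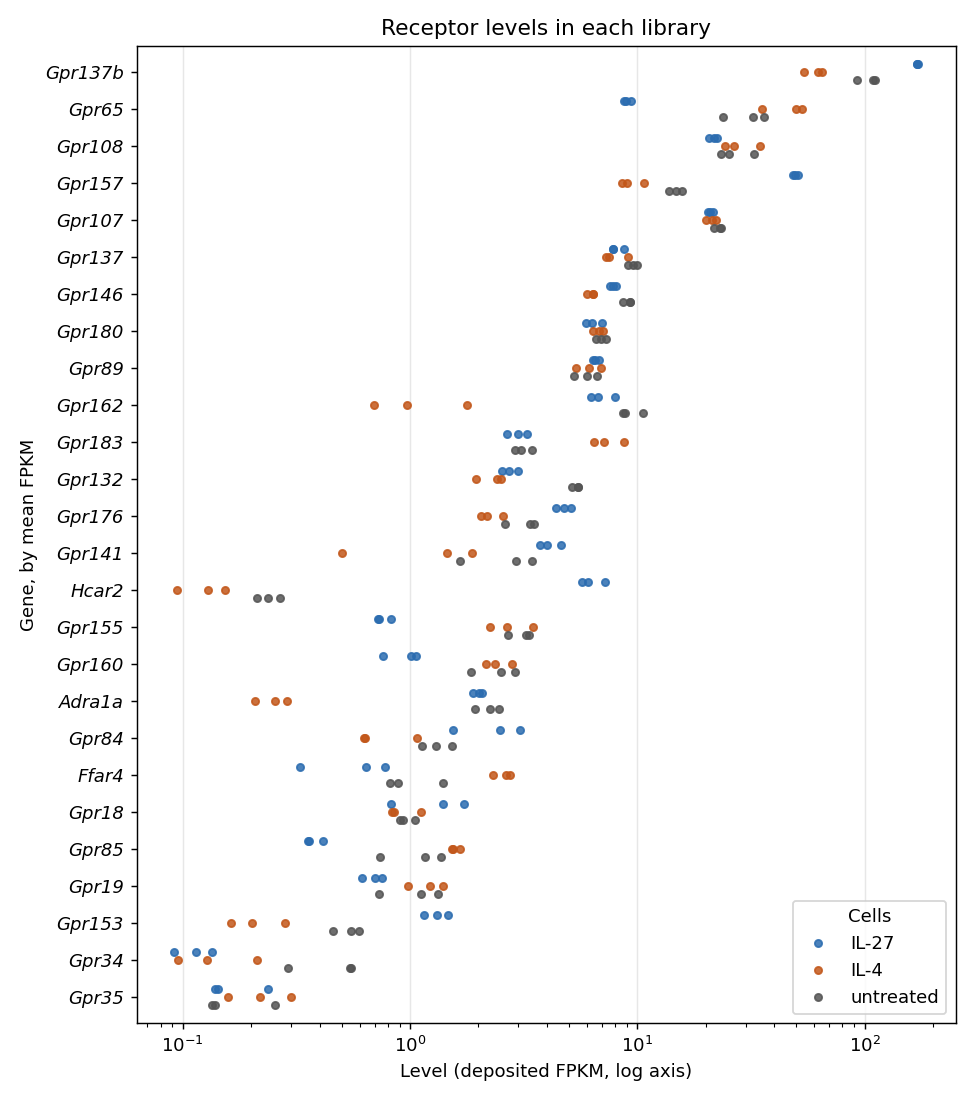
Deposited FPKM on a log axis for 26 of the 27 well measured genes, ordered by their mean, with 1 point per library and colours for IL-27, IL-4 and untreated cells. Gpr137b lay highest in all 3 groups, and Hcar2, Adra1a and Gpr162 each showed 1 or 2 groups far to the left of the rest.

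Against untreated cells, IL-4 cells had 10 of the 24 well measured Gpr genes past an adjusted p of 0.05 in edgeR's quasi-likelihood test with Benjamini-Hochberg adjustment over 12587 genes: 2 higher, 8 lower, and 14 not past the threshold. Of all tested genes 25.0% passed, 12.9% being higher and 12.0% lower. The median log2 fold change of the 24 was -0.17, against -0.01 over all genes. IL-27 cells against untreated cells had 11 of the 24 past it, 5 higher and 6 lower, where 29.2% of all genes passed, 14.0% higher and 15.1% lower. Between IL-27 and IL-4 cells 14 passed, 8 higher and 6 lower with IL-27, where 39.8% of all genes passed, 18.8% higher and 21.0% lower. The shares of all genes include tested genes under 1 CPM, which the 24 do not. Of the 28 Gpr genes that passed the filter at any level, 35.7%, 42.9% and 53.6% were called in the 3 comparisons, in the same order. Without IL-4 replicate 1 and untreated replicate 2 the counts were 12, 13 and 17, where 46.4%, 49.5% and 58.3% of all genes passed, so that 12 and 13 of 24 lay near the share of all genes. The comparisons with untreated cells share the same 3 untreated libraries, so they are given side by side and not set against each other.

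**Figure D2:**
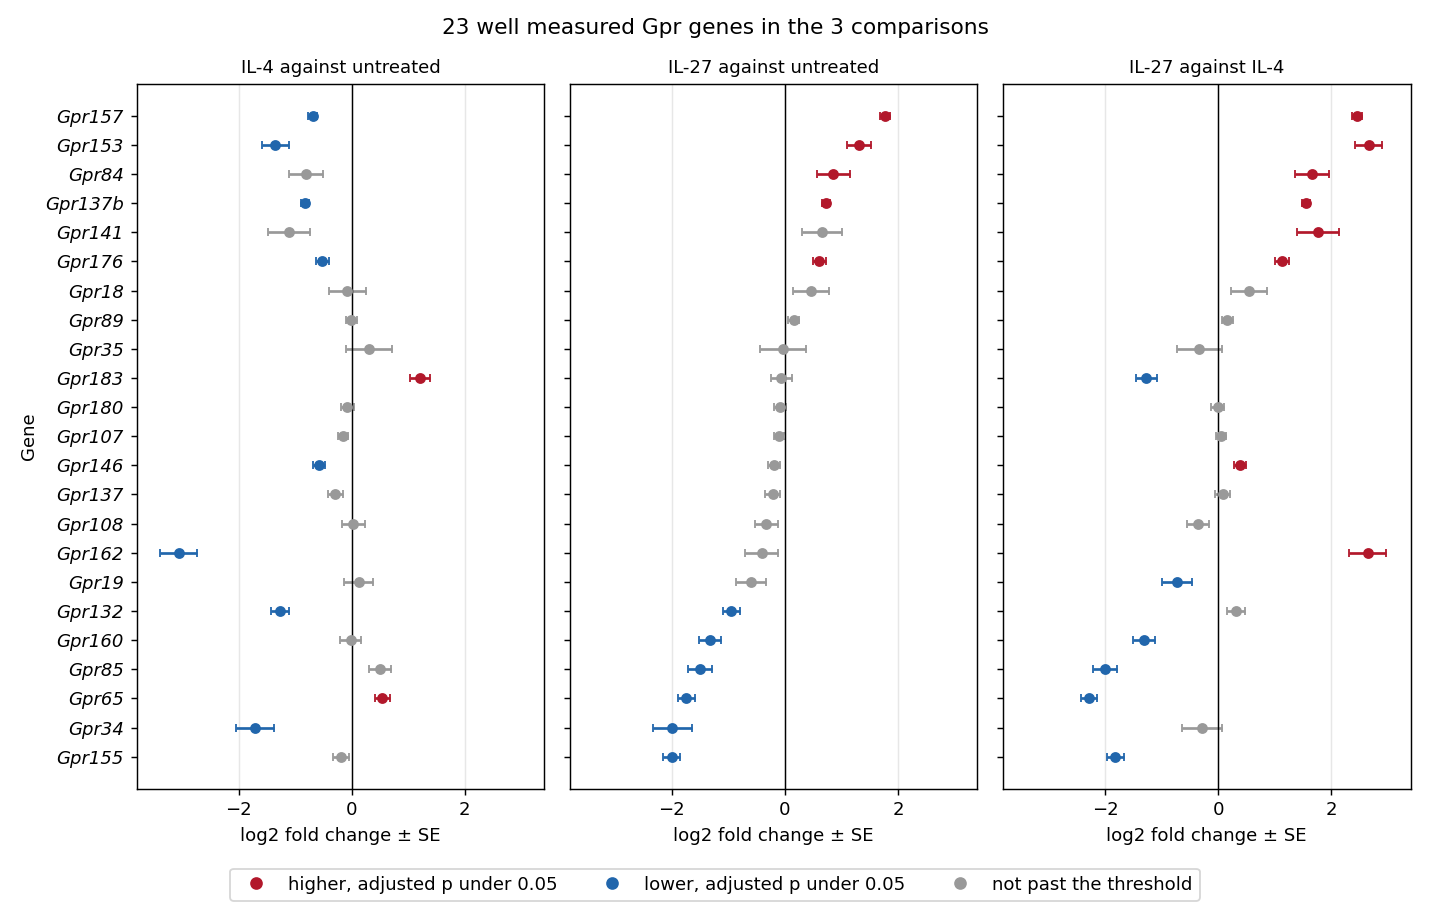
Log2 fold change with its SE for 23 of the 24 well measured Gpr genes in 3 panels (IL-4 against untreated, IL-27 against untreated, IL-27 against IL-4), in red where higher and blue where lower past an adjusted p of 0.05, and grey otherwise. Gpr157, Gpr153 and Gpr137b lay right of 0 in the IL-27 panels and left of it in the IL-4 panel, and Gpr162 lay far left with IL-4.

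Among receptors for metabolites and lipids, Hcar2 had the widest range between groups, with its high level in IL-27 cells. Hcar2 (gene ID 80885) is the Gi-coupled receptor for the ketone body beta-hydroxybutyrate and for niacin. It had 11.9, 11.5 and 14.2 CPM in the IL-27 libraries, from 437, 416 and 519 counts. The IL-4 libraries had 0.264, 0.175 and 0.280 CPM, from 9, 7 and 11 counts, and the untreated ones 0.50, 0.452 and 0.446 CPM, from 18, 15 and 16 counts. All 3 IL-27 libraries were far above the other 6, and each IL-4 library lay under each untreated one. The log2 fold change was 4.74 for IL-27 against untreated cells and -0.96 for IL-4 against untreated cells, and 5.70 for IL-27 against IL-4 cells. Per length, Hcar2 stood at 6.05, 5.73 and 7.19 FPKM in IL-27 cells, against 0.129, 0.0947 and 0.153 FPKM in IL-4 cells and 0.267, 0.213 and 0.236 FPKM in untreated cells.

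Ffar4 (gene ID 107221), a receptor for long-chain fatty acids, had the opposite order at a low level. It had 1.09, 0.469 and 0.902 CPM with IL-27, 3.87, 3.64 and 3.03 CPM with IL-4 and 1.86, 1.23 and 1.20 CPM in untreated cells. The 3 IL-4 libraries were above all others, and the IL-27 and untreated libraries did not overlap but nearly met. The log2 fold change was 1.29 for IL-4 and -0.80 for IL-27 against untreated cells. Gpr84 (gene ID 80910), a receptor activated by medium-chain fatty acids and known from activated myeloid cells, had 5.43, 2.79 and 4.43 CPM with IL-27, 1.17, 1.05 and 1.78 CPM with IL-4 and 2.20, 2.17 and 2.62 CPM untreated. The groups did not overlap. Gpr84 was higher in IL-27 than in IL-4 cells (log2 fold change 1.66 ± 0.30 SE, edgeR adjusted p = 0.00157). Against untreated cells the IL-27 value was just past the threshold (log2 fold change 0.85 ± 0.29 SE, edgeR adjusted p = 0.0494) and the IL-4 value was not (log2 fold change -0.80 ± 0.30 SE, edgeR adjusted p = 0.0811). The IL-27 call was lost in 9 of 17 alternatives, with adjusted p from 0.05003 to 0.190 in edgeR or limma, the highest without IL-27 replicate 1. The others included leaving out replicate 3 of IL-27, replicate 2 of IL-4 or any 1 untreated library.

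Gpr183 (EBI2, gene ID 321019), which guides immune cells along gradients of oxysterols, was highest in IL-4 cells. It had 9.11, 10.2 and 8.23 CPM in IL-27 libraries, 27.8, 20.4 and 18.2 CPM in IL-4 libraries and 8.40, 11.4 and 9.01 CPM in untreated libraries. Each IL-4 library was above all 6 others, while the IL-27 and untreated ranges overlapped. IL-4 cells were higher than untreated cells (log2 fold change 1.21 ± 0.18 SE, edgeR adjusted p = 0.00108), IL-27 cells were lower than IL-4 cells (log2 fold change -1.27 ± 0.18 SE, edgeR adjusted p = 0.000392), and IL-27 and untreated cells differed by -0.06 (edgeR adjusted p = 0.828). Ubac2, which overlaps Gpr183 on the other strand in the GRCm38 annotation, averaged 39.4 CPM with IL-27, 40.4 CPM with IL-4 and 46.8 CPM untreated and passed the threshold in none of the comparisons (edgeR adjusted p from 0.0897 to 0.795). Gpr34 (gene ID 23890), the receptor for lysophosphatidylserine, was low with both cytokines: 0.954, 0.662 and 0.820 CPM with IL-27, 0.704, 0.849 and 1.40 CPM with IL-4 and 3.73, 2.23 and 3.74 CPM untreated. All treated libraries lay under all untreated ones, and the treated groups overlapped. The means were 0.812 CPM with IL-27, 0.984 CPM with IL-4 and 3.23 CPM untreated. Gpr34 thus reached the 1 CPM level through the untreated libraries, so its tests are given as description and are no independent support. It fell with IL-27 (log2 fold change -1.99 ± 0.34 SE, edgeR adjusted p = 0.00179) and with IL-4 (log2 fold change -1.71 ± 0.34 SE, edgeR adjusted p = 0.00459). Gpr34 overlaps Cask on the other strand, which averaged 30.2 CPM with IL-27, 34.8 CPM with IL-4 and 38.8 CPM untreated. Gpr18 and Gpr35, for which lipid and metabolite ligands have been proposed, passed the threshold in no comparison, with edgeR adjusted p from 0.209 to 0.965.

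Enzymes that make or remove ligands of these receptors were measured beside them, with means given ± SD of 3 libraries from here on. This and the later gene lists were chosen with earlier results of these data known, so their counts are description only. Of 16 tested, 3 were higher and 3 lower with IL-27 than in untreated cells, and 2 were higher and 1 lower with IL-4 than in untreated cells, or 37.5% and 18.8% against 29.2% and 25.0% of all genes. The IL-4 count was 5 without IL-4 replicate 1 and 6 without that library and untreated replicate 2, where 46.4% of all genes passed. Cyp27a1, a sterol hydroxylase, averaged 20.3 ± 2.16 CPM with IL-27, 20.8 ± 1.77 CPM with IL-4 and 56.4 ± 2.36 CPM untreated, and fell with IL-27 (log2 fold change -1.48, edgeR adjusted p = 9.38e-06) and with IL-4 (log2 fold change -1.44, edgeR adjusted p = 1.57e-05). Ch25h, which makes the precursor of the Gpr183 ligand, was low throughout, at 1.74 ± 0.130 CPM with IL-27, 1.52 ± 0.354 CPM with IL-4 and 0.547 ± 0.161 CPM untreated, and rose with IL-27 (edgeR adjusted p = 0.00368) and with IL-4 (edgeR adjusted p = 0.00863). Hsd3b7, which removes that ligand, averaged 123 ± 2.52 CPM with IL-27 and 61.4 ± 13.7 CPM untreated (log2 fold change 1.00, edgeR adjusted p = 0.00216).

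The proton-sensing receptors Gpr65 and Gpr132 were both lower with IL-27 than in untreated cells, while with IL-4 Gpr65 was higher, a call lost in 3 alternatives, and Gpr132 lower. Gpr65 (gene ID 14744), a Gs-coupled acid sensor of immune cells, had 18.9, 20.8 and 19.4 CPM in IL-27 libraries, 79.6, 108 and 100.4 CPM in IL-4 libraries and 66.8, 55.7 and 75.0 CPM in untreated libraries. The 3 groups did not overlap, with IL-27 lowest and IL-4 highest. Gpr65 fell with IL-27 against untreated cells (log2 fold change -1.74 ± 0.14 SE, edgeR adjusted p = 1.73e-05) and was lower with IL-27 than with IL-4 (log2 fold change -2.28 ± 0.15 SE, edgeR adjusted p = 1.43e-06). It rose with IL-4 (log2 fold change 0.54 ± 0.14 SE, edgeR adjusted p = 0.0172) but did not pass the threshold when IL-4 replicate 2 or replicate 3 was left out (edgeR adjusted p = 0.0644 and 0.0605) or when the 2 groups were fitted alone (0.0590). Gpr132 (gene ID 56696), which responds to oxidised lipids and, less clearly, to acid, had 8.32, 7.20 and 7.55 CPM with IL-27, 7.24, 5.07 and 6.21 CPM with IL-4 and 14.5, 16.3 and 13.7 CPM untreated. Every treated library lay under every untreated one. It fell with IL-27 (log2 fold change -0.95 ± 0.15 SE, edgeR adjusted p = 0.00123) and with IL-4 (log2 fold change -1.27 ± 0.16 SE, edgeR adjusted p = 0.000282). The difference between IL-27 and IL-4 cells did not pass (log2 fold change 0.32 ± 0.16 SE, edgeR adjusted p = 0.131), but did without IL-4 replicate 1 (edgeR adjusted p = 0.0453). Gpr4, another acid sensor, did not pass the filter on low counts.

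Adra1a (gene ID 11549), the alpha-1A receptor for noradrenaline, which couples to Gq, was low in IL-4 cells and not in IL-27 cells. It had 32.2, 33.8 and 30.2 CPM in IL-27 libraries, 3.43, 3.79 and 4.27 CPM in IL-4 libraries and 37.5, 33.4 and 34.3 CPM in untreated libraries. Every IL-4 library lay far under the other 6, while the IL-27 and untreated ranges overlapped. The log2 fold change was -3.19 for IL-4 and -0.13 for IL-27 against untreated cells, and 3.06 for IL-27 against IL-4 cells. Gpr162 (gene ID 14788), an orphan receptor, was also low with IL-4: 25.0, 20.0 and 21.2 CPM with IL-27, 5.78, 2.05 and 2.82 CPM with IL-4 and 26.3, 35.7 and 26.0 CPM untreated. The 3 groups did not overlap. It was lower in IL-4 than in untreated cells (log2 fold change -3.06 ± 0.33 SE, edgeR adjusted p = 0.000120) and higher in IL-27 than in IL-4 cells (log2 fold change 2.64 ± 0.32 SE, edgeR adjusted p = 0.000123). IL-27 and untreated cells differed by -0.41 (edgeR adjusted p = 0.323).

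**Figure D3:**
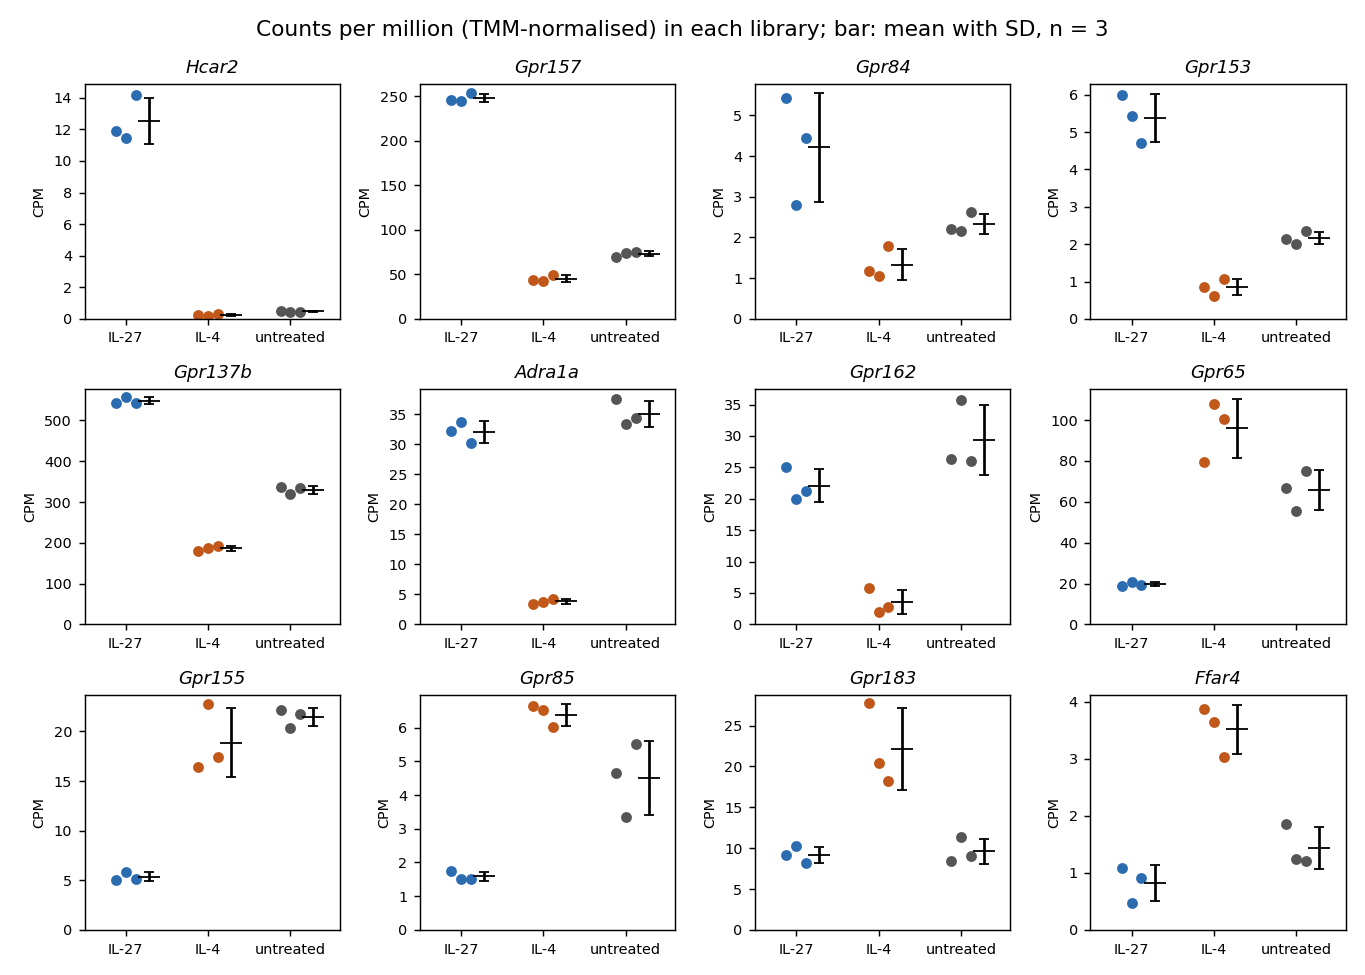
TMM-normalised CPM of 12 genes in IL-27, IL-4 and untreated cells, with 1 point per library and a bar for the mean with SD of 3 libraries, on linear axes that start at 0. Hcar2 and Gpr157 were highest with IL-27, Adra1a and Gpr162 were lowest with IL-4, and Gpr65, Gpr155 and Gpr85 were lowest with IL-27.

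For 3 orphan receptors, placed together after their values were seen, levels were higher with IL-27 and lower with IL-4 than in untreated cells. Gpr157 (gene ID 269604), an orphan studied in the cilia of neural progenitors, had 246, 245 and 254 CPM in IL-27 libraries, 44.1, 42.1 and 49.6 CPM in IL-4 libraries and 69.9, 74.3 and 75.2 CPM in untreated libraries. The groups stood clear of each other. It rose with IL-27 (log2 fold change 1.76 ± 0.09 SE, edgeR adjusted p = 1.19e-06), fell with IL-4 (log2 fold change -0.69 ± 0.09 SE, edgeR adjusted p = 0.000304) and was higher with IL-27 than with IL-4 (log2 fold change 2.46 ± 0.09 SE, edgeR adjusted p = 6.50e-08). Gpr153 (gene ID 100129), an orphan close in sequence to Gpr162, had 6.00, 5.43 and 4.70 CPM with IL-27, 0.851, 0.624 and 1.07 CPM with IL-4 and 2.14, 2.02 and 2.34 CPM untreated, again with no overlap. It rose with IL-27 (log2 fold change 1.31 ± 0.22 SE, edgeR adjusted p = 0.00151) and fell with IL-4 (log2 fold change -1.35 ± 0.24 SE, edgeR adjusted p = 0.00250). Gpr176 (gene ID 381413), an orphan of the brain's circadian clock that lowers cyclic AMP, had 25.0, 23.7 and 21.4 CPM with IL-27, 10.4, 10.0 and 11.7 CPM with IL-4 and 16.4, 13.9 and 15.9 CPM untreated. It rose with IL-27 (log2 fold change 0.61 ± 0.12 SE, edgeR adjusted p = 0.00366) and fell with IL-4 (log2 fold change -0.52 ± 0.12 SE, edgeR adjusted p = 0.0101), and the groups did not overlap. This order of means, highest with IL-27 and lowest with IL-4, was also that of Hcar2, Gpr84, Gpr141 and Gpr137b. Members that passed the threshold in no comparison, such as Gpr18 and Gpr89, had it too. Fibroblast and endothelial markers were highest with IL-27 as well. Col1a1 had 510.1, 449 and 413 CPM with IL-27, 344, 226 and 296 CPM with IL-4 and 338, 339.8 and 283 CPM untreated. Its IL-4 and untreated libraries overlapped, as did those of Pdgfra. For Col1a2, Col3a1 and Cdh5 every IL-4 library lay under every untreated one. Of the 5 fibroblast and endothelial markers, 4 were higher with IL-27 than in untreated cells, where 14.0% of all genes were higher. For IL-4 against untreated cells 0 passed, where 25.0% of all genes did, and their median log2 fold change was -0.42. All 5 were higher with IL-27 than with IL-4, where 18.8% of all genes were higher. The part of those cells in the receptor values was not tested.

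Gpr141 (gene ID 353346), an orphan of myeloid cells, had 17.1, 14.9 and 13.7 CPM with IL-27, 1.91, 6.49 and 4.96 CPM with IL-4 and 10.2, 6.56 and 12.2 CPM untreated. The groups did not overlap, with IL-27 highest and IL-4 lowest, but replicate 2 of IL-4 and of untreated cells nearly met. It was higher with IL-27 than with IL-4 (log2 fold change 1.77 ± 0.37 SE, edgeR adjusted p = 0.00395), while neither treatment passed against untreated cells: log2 fold change -1.11 ± 0.37 SE, edgeR adjusted p = 0.0530 for IL-4 and log2 fold change 0.66 ± 0.36 SE, edgeR adjusted p = 0.200 for IL-27. Among 16 members with at least 5 CPM, Gpr141 deviated most in both libraries that stood apart, and without these 2 both comparisons passed (edgeR adjusted p = 1.82e-05 for IL-4 and 0.0105 for IL-27). The IL-4 fall also passed without IL-4 replicate 1 (0.0429), without IL-4 replicate 2 (0.0276) and without untreated replicate 2 (0.0226), and the IL-27 rise without IL-4 replicate 1 (0.0341), in edgeR's adjusted p. Gpr141 has a near copy, Gpr141b, so its counts may hold reads of both.

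A further 3 orphan receptors, also placed together after their values were seen, had their lowest means with IL-27. Gpr85 (SREB2, gene ID 64450), an orphan of the brain that is highly conserved among vertebrates, had 1.75, 1.52 and 1.5 CPM in IL-27 libraries, 6.63, 6.52 and 6.00 CPM in IL-4 libraries and 4.64, 3.34 and 5.52 CPM in untreated libraries. The groups did not overlap, with IL-27 lowest. It fell with IL-27 (log2 fold change -1.50 ± 0.21 SE, edgeR adjusted p = 0.000503) and was lower with IL-27 than with IL-4 (log2 fold change -2.00 ± 0.21 SE, edgeR adjusted p = 4.16e-05), while the IL-4 value against untreated cells did not pass (log2 fold change 0.50 ± 0.20 SE, edgeR adjusted p = 0.0909). Gpr160 (gene ID 71862), an orphan, had 1.85, 2.51 and 2.6 CPM with IL-27, 5.46, 6.39 and 5.37 CPM with IL-4 and 6.70, 4.88 and 5.89 CPM untreated. IL-27 libraries lay under all others and the other 2 groups overlapped. Gpr160 fell with IL-27 (log2 fold change -1.33 ± 0.20 SE, edgeR adjusted p = 0.000704) and was lower with IL-27 than with IL-4 (log2 fold change -1.31 ± 0.20 SE, edgeR adjusted p = 0.000470). Gpr19 (gene ID 14760), an orphan, had 1.83, 1.74 and 1.5 CPM with IL-27, 2.46, 3.17 and 2.77 CPM with IL-4 and 1.70, 2.92 and 3.10 CPM untreated. The IL-27 and untreated ranges overlapped, and only the difference between IL-27 and IL-4 cells passed (log2 fold change -0.73 ± 0.26 SE, edgeR adjusted p = 0.0480). That call was lost in 8 of 17 alternatives (edgeR adjusted p from 0.0531 to 0.136), among them each that left out IL-4 replicate 2 or 3, untreated replicate 3 or any 1 IL-27 replicate. Without untreated replicate 1, Gpr19 was lower in IL-27 than in untreated cells (edgeR adjusted p = 0.0292).

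Gpr146 (gene ID 80290), which controls cholesterol export from the mouse liver, differed by less. It had 52.6, 56.4 and 54.4 CPM with IL-27, 45.7, 38.8 and 41.0 CPM with IL-4 and 56.7, 69.1 and 61.4 CPM untreated. Each group kept its own range, with IL-4 lowest. It fell with IL-4 against untreated cells (log2 fold change -0.58 ± 0.10 SE, edgeR adjusted p = 0.00276). The IL-27 value did not pass against untreated cells (log2 fold change -0.20 ± 0.10 SE, edgeR adjusted p = 0.183). The difference between IL-27 and IL-4 cells passed (log2 fold change 0.38 ± 0.10 SE, edgeR adjusted p = 0.0149) but not without IL-4 replicate 2 (edgeR adjusted p = 0.0542) or without replicate 2 or 3 of IL-27 (0.0597 and 0.0533). 3110082I17Rik, on the other strand at Gpr146, averaged 11.9 CPM with IL-27, 23.3 CPM with IL-4 and 11.01 CPM untreated, opposite to Gpr146 with IL-4. The sources used here do not give the counting strand, so reads of such pairs cannot be told apart.

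Members with intracellular sites included the most abundant gene, and only Gpr137b and Gpr155 among them passed the threshold in a comparison. Of the 8 such genes tested, IL-27 against untreated cells gave 1 higher and 1 lower, IL-4 against untreated cells gave 1 lower, and IL-27 against IL-4 cells gave 1 higher and 1 lower. These were shares of 25.0%, 12.5% and 25.0%, beside 29.2%, 25.0% and 39.8% of all genes. With 8 genes 1 call makes 12.5%, so no difference from all genes is read from these shares. Among the 8, 1 gene with a mean of 0.366 CPM was not well measured. Gpr137b (gene ID 83924), a lysosomal protein that acts on the nutrient-sensing kinase mTORC1, had 542, 558 and 544 CPM in IL-27 libraries, 179, 187 and 193 CPM in IL-4 libraries and 336, 319 and 335 CPM in untreated libraries. No groups overlapped. Gpr137b rose with IL-27 (log2 fold change 0.73 ± 0.07 SE, edgeR adjusted p = 5.82e-05), fell with IL-4 (log2 fold change -0.83 ± 0.07 SE, edgeR adjusted p = 3.77e-05) and was higher with IL-27 than with IL-4 (log2 fold change 1.56 ± 0.07 SE, edgeR adjusted p = 2.61e-07). It has a near copy, the pseudogene Gpr137b-ps, so its value may hold reads of both. Gpr155 (LYCHOS, gene ID 68526), a lysosomal cholesterol sensor upstream of the same kinase, had 5.07, 5.88 and 5.14 CPM with IL-27, 16.4, 22.8 and 17.4 CPM with IL-4 and 22.2, 20.4 and 21.8 CPM untreated. The IL-27 libraries lay under all others, and the IL-4 and untreated ranges overlapped. Gpr155 fell with IL-27 (log2 fold change -2.00 ± 0.15 SE, edgeR adjusted p = 9.28e-06) and was lower with IL-27 than with IL-4 (log2 fold change -1.81 ± 0.15 SE, edgeR adjusted p = 7.42e-06). Its IL-4 value against untreated cells was -0.19 (edgeR adjusted p = 0.377).

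The other abundant members of this kind passed the threshold in no comparison, which does not show that they were equal. Gpr107, a Golgi protein of vesicle traffic, averaged 84.1 ± 2.17 CPM with IL-27, 81.1 ± 2.43 CPM with IL-4 and 90.3 ± 8.97 CPM untreated (SD, n = 3 each). Gpr108, its relative in the Golgi, had 66.1, 65.6 and 61.5 CPM with IL-27, 106, 67.7 and 73.4 CPM with IL-4 and 65.8, 104 and 72.3 CPM untreated, and its high values were in the 2 libraries that stood apart. Gpr89, a Golgi anion channel that sets the pH there, averaged 30.3 ± 0.913 CPM with IL-27, 27.1 ± 2.21 CPM with IL-4 and 27.3 ± 1.86 CPM untreated. For these 3 genes with Gpr137 and Gpr180 the log2 fold changes ran from -0.36 to 0.16, with edgeR adjusted p of 0.141 or more.

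Of the 32 Gpr genes that were not well measured, 4 were tested and 28 did not pass the filter on low counts. The 28 held 1 to 52 counts each over all 9 libraries, and 13 of them had under 10 counts in the 9 together. The limit of 3 counts corresponds to 0.0868 CPM in the smallest library, so a gene at or near it could not be compared between groups at this depth, which does not show that it was absent. Gpr39, a zinc-sensing receptor that was just outside the level, had 2.18, 1.63 and 2.41 CPM with IL-27, 0.616, 0.649 and 0.331 CPM with IL-4 and 0.25, 0.331 and 0.279 CPM untreated. All IL-27 libraries were above the other 6. Lypd1, which overlaps it on the other strand, was not tested.

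Most of the receptor kinases and arrestins that end receptor signals were lower with IL-27. The list was chosen with earlier results of these data known, so its counts are no independent support. Of 7 tested, 6 were lower and none higher in IL-27 than in untreated cells, where 15.1% of all genes were lower, and 2 were lower and none higher in IL-4 than in untreated cells, where 12.0% of all genes were lower. Grk4 did not pass with IL-27 (log2 fold change -0.36, edgeR adjusted p = 0.526), and Grk1, which was not tested, had a mean of 0.219 ± 0.171 CPM with IL-27 and 0.00927 ± 0.0161 CPM untreated. Of the 7, the median log2 fold change was -0.82 with IL-27 and -0.36 with IL-4. Arrb1 (beta-arrestin) had 161, 159 and 158 CPM in IL-27 libraries, 322, 256 and 276 CPM in IL-4 libraries and 269, 316 and 258 CPM in untreated libraries. The IL-27 libraries lay under all others. Arrb1 was lower in IL-27 than in untreated cells (log2 fold change -0.82, edgeR adjusted p = 0.000374) and than in IL-4 cells (log2 fold change -0.84, edgeR adjusted p = 0.000181). Grk3, a receptor kinase, had 13.5, 12.7 and 10.8 CPM with IL-27, 15.9, 14.8 and 15.8 CPM with IL-4 and 24.1, 24.8 and 24.1 CPM untreated. It fell with IL-27 (log2 fold change -0.98, edgeR adjusted p = 0.000135) and with IL-4 (log2 fold change -0.65, edgeR adjusted p = 0.00198). Grk5 averaged 14.6 ± 1.28 CPM with IL-27, 20.4 ± 0.567 CPM with IL-4 and 26.3 ± 2.6 CPM untreated and fell with both (edgeR adjusted p = 0.000371 and 0.0386). The count of 6 was the same under all alternatives run, leaving out any 1 library included, while the IL-4 count ranged from 1 to 4 and was 1 without IL-4 replicate 2, untreated replicate 1 or replicate 2 or 3 of IL-27. Between IL-27 and IL-4 cells 5 were lower and none higher, where 21.0% of all genes were lower, and 3 were called without replicate 2 or replicate 3 of IL-27. Arrb1, Arrb2, Grk2, Grk3 and Grk6 were highest in IL-4 replicate 1 and untreated replicate 2 within their groups.

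**Figure D4:**
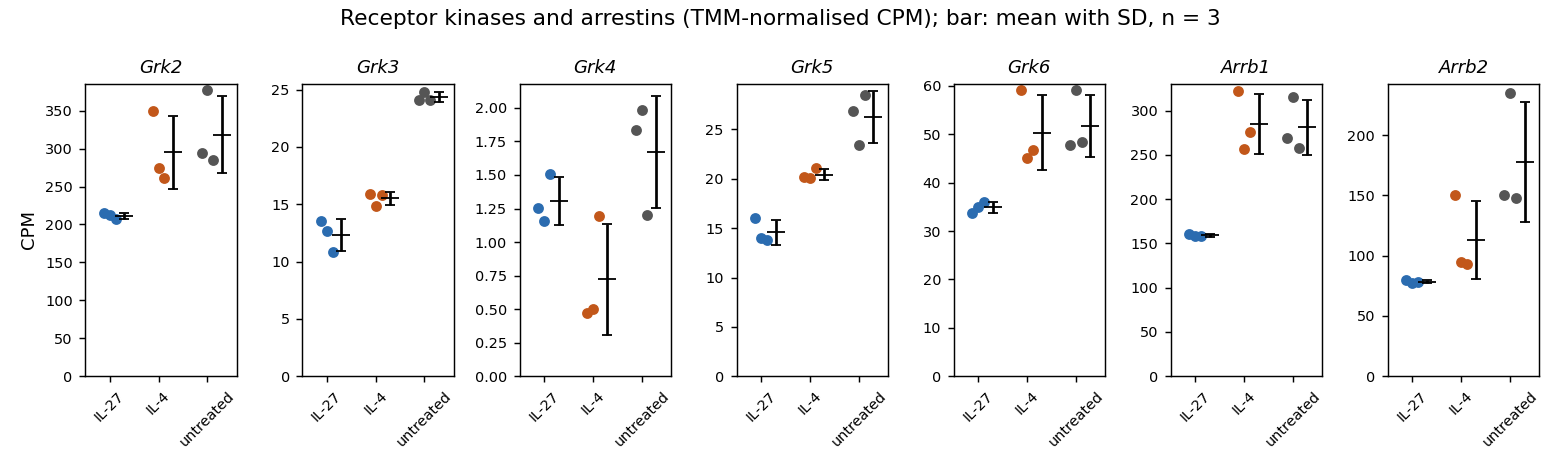
TMM-normalised CPM of 7 receptor kinases and arrestins in IL-27, IL-4 and untreated cells, with 1 point per library and a bar for the mean with SD of 3 libraries. For Grk2, Grk3, Grk5, Grk6, Arrb1 and Arrb2 the IL-27 points lay under all untreated points, and for Grk4 they overlapped.

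Other parts of the signalling chain changed gene by gene. Of 12 G protein alpha subunits tested, 3 were higher and 2 lower with IL-27, and 1 was higher with IL-4, each against untreated cells, or 41.7% and 8.33% of them against 29.2% and 25.0% of all genes. Gna13, of the class that acts on the cytoskeleton, averaged 506 ± 14.3 CPM with IL-27, 294 ± 14.5 CPM with IL-4 and 311 ± 11.7 CPM untreated, and was higher with IL-27 than in untreated cells (log2 fold change 0.70, edgeR adjusted p = 0.000103). The IL-27 count was 2 without any 1 IL-27 library and 3 without untreated replicate 2, and the IL-4 count was 0 without replicate 3 of any group and 2 without IL-4 replicate 1. Without IL-4 replicate 1 and untreated replicate 2 they were 7 and 4, where 49.5% and 46.4% of all genes passed. Of 13 beta and gamma subunits, 4 were higher with IL-27 (30.8%), near the 29.2% of all genes, and with IL-4 1 was higher and 1 lower (15.4% against 25.0%). Gnb4 averaged 37.4 ± 0.909 CPM with IL-27, 38.2 ± 0.675 CPM with IL-4 and 18.7 ± 1.88 CPM untreated, and rose with IL-27 (edgeR adjusted p = 5.07e-05) and with IL-4 (edgeR adjusted p = 5.96e-05). Without IL-4 replicate 1 and untreated replicate 2, 11 of the beta and gamma subunits were called with IL-27 and 6 with IL-4. Of all genes 49.5% and 46.4% passed there. Of 12 RGS proteins, which shorten the signal by speeding GTP hydrolysis, 2 were higher and 3 lower with IL-27 (41.7% against 29.2% of all genes), and 1 was lower with IL-4 (8.33% against 25.0%). The IL-27 count was 3 without replicate 1 or replicate 2 of IL-27, and the IL-4 count was 0 without untreated replicate 3. Without the 2 libraries that stood apart they were 8 and 3, against the same 49.5% and 46.4% of all genes. Rgs1 averaged 228 ± 15.0 CPM with IL-27, 92.4 ± 19.5 CPM with IL-4 and 113 ± 15.8 CPM untreated and rose with IL-27 (log2 fold change 1.01, edgeR adjusted p = 0.00106).

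Of 22 genes of cyclic AMP synthesis, breakdown and its kinase, 4 were higher and 5 lower with IL-27 against untreated cells, and 2 were higher and 1 lower with IL-4, or 40.9% and 13.6% against 29.2% and 25.0% of all genes. The IL-4 count was 1 without replicate 2 or 3 of IL-4, replicate 1 or 2 of IL-27 or replicate 3 of the untreated cells. It was 7 without IL-4 replicate 1 and untreated replicate 2, where 46.4% of all genes passed. Pde7b, a phosphodiesterase that breaks down cyclic AMP, averaged 44.1 ± 3.59 CPM with IL-27, 10.6 ± 1.14 CPM with IL-4 and 22.0 ± 0.605 CPM untreated. It rose with IL-27 (log2 fold change 1.00, edgeR adjusted p = 0.000101) and fell with IL-4 (log2 fold change -1.05, edgeR adjusted p = 0.000112). Adcy9, an adenylate cyclase, averaged 20.3 ± 1.16 CPM with IL-27, 36.8 ± 5.24 CPM with IL-4 and 41.6 ± 4.22 CPM untreated and fell with IL-27 (log2 fold change -1.04, edgeR adjusted p = 0.000217). Of 13 receptors for like ligands that lie outside the Gpr names, 1 was higher and 5 lower with IL-27, and 2 were higher and 7 lower with IL-4, or 46.2% and 69.2% against 29.2% and 25.0% of all genes. Leaving out libraries, alone or the 2 that stood apart, gave 4 to 8 called with IL-27 and 8 to 10 with IL-4. Without those 2, 49.5% and 46.4% of all genes passed. S1pr1, a receptor for sphingosine phosphate, averaged 37.4 ± 3.21 CPM with IL-27, 11.3 ± 1.35 CPM with IL-4 and 32.6 ± 1.25 CPM untreated and fell with IL-4 (log2 fold change -1.53, edgeR adjusted p = 1.58e-05).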

How the data were processed

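PolyA RNA from 9 mouse macrophage libraries (3 each of IL-27, IL-4 and untreated) was analysed from the deposited tables. Per the submitters' processing notes, the authors' pipeline used fastp, HISAT2 and HTSeq with GRCm39 to make the deposited raw counts per gene; versions, annotation, counting strand and shared reads are not described. The deposited FPKM values were computed by the authors from the same counts: dividing one by the other gave 1 length in every library, within a tolerance of 0.0001, for all 16200 genes. FPKM served for levels between genes, counts for tests.

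Counts were fitted in R 4.3.3 with edgeR 4.0.16 (quasi-likelihood, TMM factors 0.918 to 1.065, 1 fit of all 9 libraries with a group term). filterByExpr with a minimum count of 10 left 12587 genes, and adjusted p (Benjamini-Hochberg) under 0.05 within a comparison was called. The coefficient of variation between libraries was 0.165. SE was derived as the absolute log2 fold change divided by the root of F, and CPM are TMM-normalised. Totals of 34577188 to 37951827 counts make 3 counts equal to 0.079 to 0.0868 CPM, an allowance for counting error only. The step was tested on simulated counts with 1 dispersion for all genes and independent libraries. Such counts hold no libraries that stand apart together, so the simulation does not cover that feature of these data.

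Members and gene lists were chosen with earlier results of these data known. Genes named are each well measured member called in at least 1 comparison, Hcar2, Adra1a and Ffar4, up to 6 others by level, and of each list up to 3 genes of smallest adjusted p. All 59 gene IDs matched the RefSeq gene table. Overlaps and promoters come from GRCm38 annotation and are given by gene, not set on the files' coordinates. Alternatives were RLE factors, no filter, a filter of CPM over 1 in 3 libraries, DESeq2 1.42.0, limma 3.58.1 on log2(FPKM + 0.1), 2-group fits, a replicate block, other levels for well measured genes, and leaving out libraries. Replicate numbers are shared across groups but nothing says that they mark a shared animal or day. One well measured gene and 1 listed gene are counted but not reported here by name or in figures.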

Additional observations from a re-analysis of the deposited data

How the results depend on the processing

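Of 35 member results past the threshold, 31 kept their direction and stayed past it under every alternative run. The exceptions were Gpr65 (IL-4 against untreated), Gpr84 (IL-27 against untreated), and Gpr146 and Gpr19 (IL-27 against IL-4). With well measured set at 5 CPM, 16 Gpr genes remained to be counted. Of these, 8 were called for IL-4 against untreated, 6 for IL-27 against untreated and 9 for IL-27 against IL-4. The shares of all genes called were 25.0%, 29.2% and 39.8% in the same order, and they include tested genes under 5 CPM. Leaving out libraries, alone or IL-4 replicate 1 with untreated replicate 2, gave 2313 to 5909 genes called for IL-4 and 2580 to 6313 for IL-27 against untreated cells, both highest without those 2. On log2(FPKM + 0.1) with limma, Hcar2 had log2 fold changes of 4.24 (IL-27 against untreated), -0.59 (IL-4 against untreated) and 4.83 (IL-27 against IL-4), and Adra1a -2.73 (IL-4 against untreated) and 2.59 (IL-27 against IL-4); the pseudocount shrinks changes of low values by construction. Depth limits the 28 Gpr genes that did not pass the filter.

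Values near 0 that were not past the threshold changed sign, and the cause was not tested: Gpr160 with IL-4 against untreated was 0.027 in limma and -0.13 to 0.093 with libraries left out, Gpr19 with IL-4 -0.10 to 0.31, Gpr183 with IL-27 against untreated -0.15 to 0.072, and Gpr34 with IL-27 against IL-4 -0.47 to 0.060.

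Deviations of same-numbered libraries correlated at -0.794, -0.816 and 0.691 between IL-4 and untreated cells. Same-numbered pairs with an IL-27 library lay between -0.00795 and 0.0845. IL-4 replicate 1 and untreated replicate 2, which stood apart together, have different numbers and weigh on the values between IL-4 and untreated cells. Whether the numbers mark shared samples therefore cannot be told from these correlations. With a replicate block, 10, 10 and 13 of the 24 Gpr genes (2308, 2899 and 4216 of all genes) were called for IL-4 and IL-27 against untreated and IL-27 against IL-4, and the calls lost were Gpr84 and Gpr19.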
